A study of Bos taurus with 24 samples.

Results

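Aromatase, the product of CYP19A1, and the receptor of follicle-stimulating hormone, the product of FSHR, were followed across the granulosa cells of individual cows. Their 2 rows (ENSBTAG00000014890 and ENSBTAG00000032424) were chosen by identifier as markers of oestrogen-active granulosa cells, out of 24615 genes listed for every cow. Both passed the filter on low counts, which kept 12868 genes. The rule itself uses no measured value.

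Granulosa cells line the ovarian follicle and surround the oocyte. Follicle-stimulating hormone from the pituitary binds its receptor on these cells, a G protein-coupled receptor that raises cyclic AMP, and one of the genes switched on downstream is CYP19A1. Aromatase then turns androgens made by the neighbouring theca cells into oestradiol. In cattle, aromatase is typical of the growing dominant follicle, and both genes are known to decline when a follicle regresses or turns into a corpus luteum.

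The cells came from slaughtered multiparous Holstein cows in the luteal phase, which had not been synchronized. The follicular cells of each cow were pooled over all antral follicles of both ovaries, held mural granulosa and some cumulus cells, and had been depleted of leukocytes with anti-CD45 beads and of erythrocytes with a lysis buffer. In vitro production of embryos (IVP) was then run on the oocytes of each cow separately. The labels give 3 IVP scores per cow, which are the BL rate (the percentage of inseminated oocytes that became blastocysts), the kinetic score (the mean stage of the blastocysts) and the morphology score (their mean grade), and they give the class of the bull whose semen was used, high or low in the Nordic Total Merit index (NTM). Of the 23 cows analysed, 15 belonged to the high-NTM class and 8 to the low-NTM class, and the cells were collected before insemination. Cows 1 and 15, both of the high-NTM class, gave no blastocysts and carry a 0 in all 3 scores. The kinetic and morphology scores average over blastocysts, so for these cows the 0 in them is not a measured stage or grade. Cow 8, a low-NTM cow that the study left out as an outlier with poor mapping, is described only in the closing part.

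Total counts ran from 15525201 to 27074496 read pairs per cow. Cow 24 stood apart with the lowest total and with 21629 genes with a count, against 15559 to 17771 in the other 22 cows. Each cow has 1 library, so the spread within a cow is unknown and every p-value below is set against the spread between cows. In these pools, fewer cells of a kind and less RNA per cell cannot be told apart. The granulosa identity of the samples was not checked here against other markers, because the files carry identifiers without symbols.

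CYP19A1 was the variable gene of the pair. Its level, in TMM-normalized cpm (read pairs scaled to a common library size), was lowest in cow 24 at 33.5 cpm, had a median of 814 cpm and was highest in cow 15 at 6922 cpm, a 206-fold range. The mean was 1155 ± 1487 cpm (SD, n = 23), a coefficient of variation of 129%. The SD thus exceeded the mean, because cow 15 alone stood 2.44-fold above the next cow.

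The order of the cows opened with 4 cows below 100 cpm, in which cow 24 was followed by cow 20 at 68.9 cpm, cow 11 at 72.5 cpm and cow 6 at 84.7 cpm. The values then climbed through cow 18 at 146 cpm, cow 3 at 193 cpm, cow 2 at 227 cpm, cow 22 at 329 cpm, cow 9 at 454 cpm and cow 7 at 530 cpm. All 10 of these cows lay below the median of 814 cpm.

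A narrow group of 5 cows followed, from cow 19 at 810 cpm over cows 16, 17 and 5 to cow 4 at 933 cpm. The remaining 8 cows exceeded 1000 cpm. They ran from cow 14 at 1192 cpm and cow 23 at 1335 cpm over cows 10, 1, 13 and 12 to cow 21 at 2839 cpm and cow 15. The widest steps between neighbours at the ends of the order were those from cow 24 to cow 20 (2.06-fold) and from cow 21 to cow 15 (2.44-fold).

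Counting error was small against these differences. CYP19A1 had between 488 read pairs in cow 24 and 162254 in cow 15, which gives a counting error of 4.53% to 0.248% of the value. Only 4 of the 22 pairs of neighbours in the order had overlapping 95% Poisson intervals. These intervals cover counting error only, not the preparation of the library. Without the extreme cows the span stayed wide, since the second highest cow exceeded the second lowest 41.2-fold and the quartiles, at 210 and 1490 cpm, differed 7.09-fold.

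Set against the other genes, the spread of CYP19A1 was unusual for so abundant a transcript. The SD of its log2 cpm was 1.98, the 67th highest of 12868 genes, of which the median was 0.369. Among the 598 genes whose median cpm reached that of FSHR, it ranked 2nd. By read pairs, which are not adjusted for gene length, CYP19A1 was the 12th most abundant gene in cow 15 and the 3422nd in cow 24, with a median rank of 126.

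FSHR stayed within a 2.72-fold range over the same cows. It was lowest in cow 19 at 107 cpm, had a median of 174 cpm and was highest in cow 13 at 292 cpm, and 20 of the 23 cows lay between 150 and 300 cpm. The mean was 193 ± 49.5 cpm (SD, n = 23), a coefficient of variation of 25.6%. This is an ordinary spread, as the SD of log2 cpm was 0.366, with 49.6% of the genes below it.

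The order of FSHR placed the cows differently. After cow 19 came cow 11 at 148 cpm, cow 23 at 149 cpm and cow 7 at 151 cpm, and the lowest 14 cows ended with cow 5 at 178 cpm. Cow 12 had 199 cpm, and the next value up was 231 cpm in cow 22. Above it stood cow 1 at 235 cpm, cow 16 at 238 cpm, cow 10 at 246 cpm, cows 17 and 21 at 258 cpm, cow 9 at 272 cpm and cow 13. Neighbours in this order were seldom told apart, since 17 of the 22 pairs had overlapping Poisson intervals. The counting error of 1.17% to 2.11%, on 2241 to 7358 read pairs, was still far below the spread between cows. The rank of FSHR among genes moved only between 370 and 1004, with a median of 595.

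**Figure D1:**
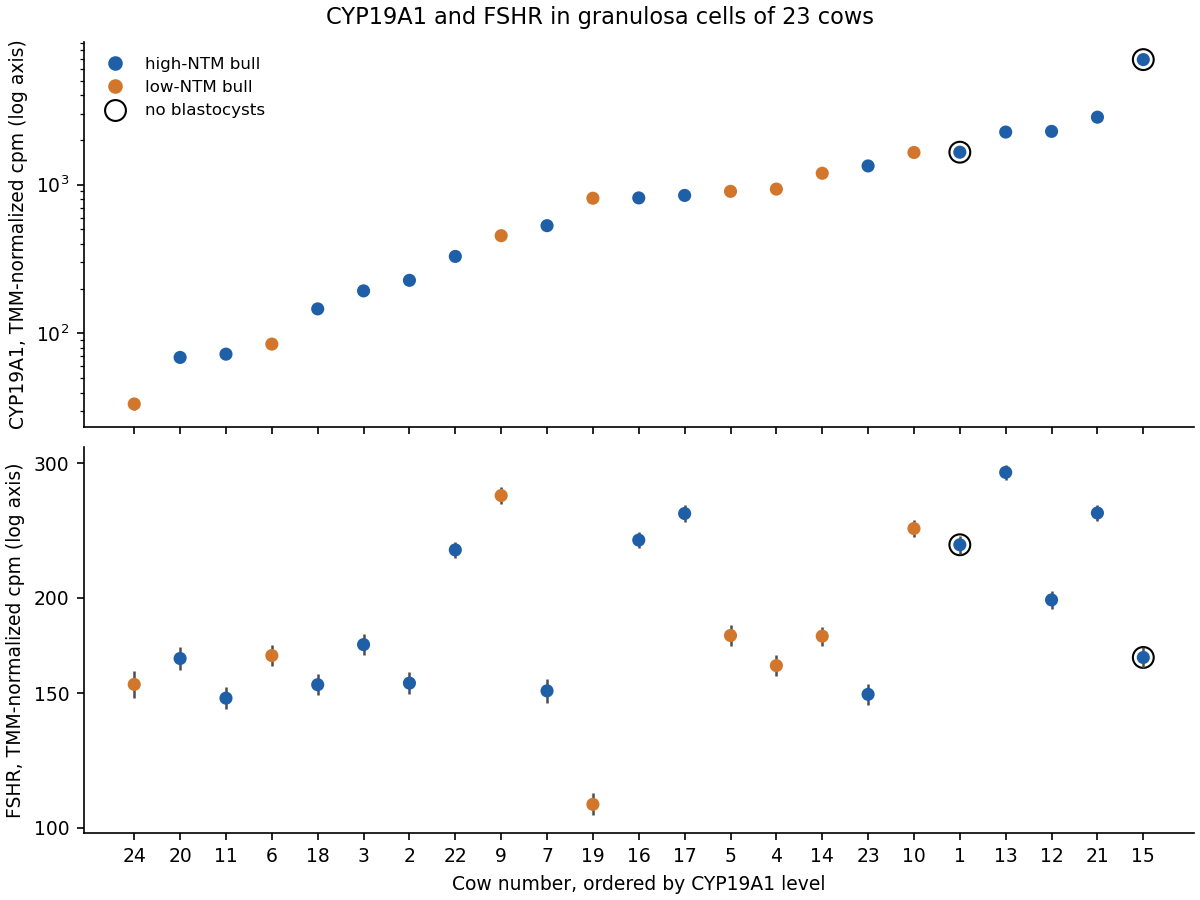
TMM-normalized cpm of CYP19A1 (top) and FSHR (bottom) in each of the 23 cows, both ordered by CYP19A1, with log vertical axes that differ between the panels. Points are coloured by NTM class, rings mark the 2 cows without blastocysts and bars are 95% Poisson intervals. CYP19A1 climbs from 33.5 to 6922 cpm, while FSHR stays between 107 and 292 cpm, and heights cannot be compared between the genes because their lengths were not used.

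Receptor and enzyme were related only loosely. Over the 23 cows, Pearson's r of log2 cpm was 0.389 (permutation p = 0.0669) and Spearman's rho was 0.463 (permutation p = 0.0279), so the rank coefficient passed 0.05 and the linear one did not. Without cows 20 and 24, the farthest from the median of CYP19A1, r was 0.342 (permutation p = 0.130) and rho was 0.417 (permutation p = 0.0619). The call on the ranks was also lost without cow 11, 13, 14, 21 or 24 alone (rho between 0.382 and 0.421), while the coefficient itself moved little. Across a 10-fold difference in CYP19A1, the fitted FSHR level differed 1.18-fold.

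Cows with nearly equal FSHR show how free CYP19A1 was. Cow 15, the highest for CYP19A1, had 167 cpm of FSHR, and cows 6 and 20, with 168 and 167 cpm of FSHR, were 81.7-fold and 100.4-fold lower in CYP19A1. Cow 19, the lowest for FSHR, had 810 cpm of CYP19A1, next to the median cow. Of the 5 cows lowest in CYP19A1 (24, 20, 11, 6 and 18), none exceeded 168 cpm of FSHR. The 8 cows above 1000 cpm of CYP19A1, in contrast, covered 149 to 292 cpm of FSHR. These cows were picked after their values were seen, as a description.

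Scaling and the main axis of variation both bore on the relation. With counts scaled to the library total in place of TMM factors, r rose to 0.520 (permutation p = 0.0112). After the first principal component was removed from both genes, r was 0.174 and rho was 0.0553. Within the high-NTM class r was 0.489 (permutation p = 0.0655, n = 15), and within the low-NTM class it was 0.193 (permutation p = 0.643, n = 8). The difference between the classes was not tested.

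**Figure D2:**
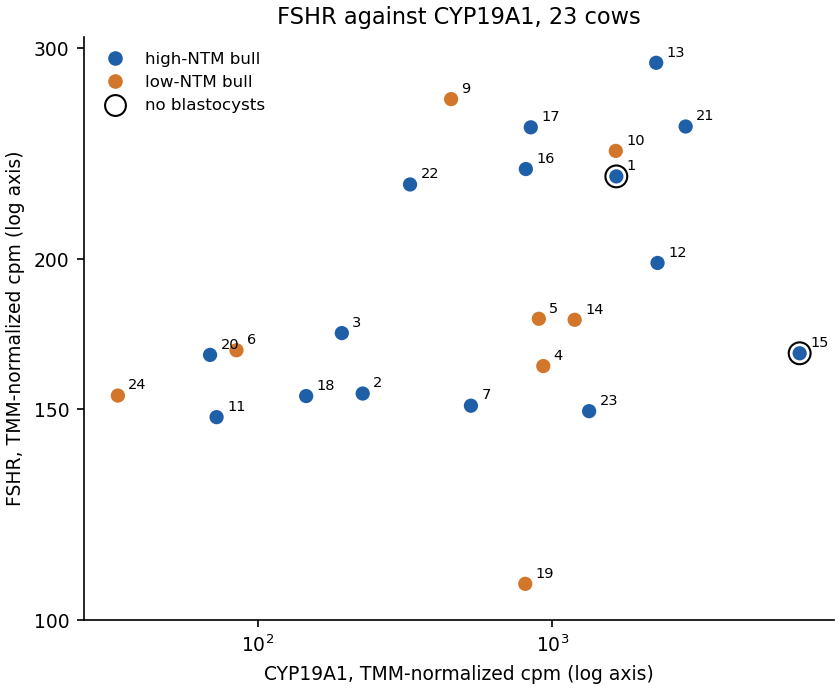
FSHR against CYP19A1 in the 23 cows, both as TMM-normalized cpm on log axes. Each point is a cow with its number, coloured by NTM class, with rings around the 2 cows without blastocysts. Cows 6, 20 and 15 lie at almost the same height, at 167 to 168 cpm of FSHR, although CYP19A1 differs 100.4-fold between cows 20 and 15.

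A principal component analysis of the other 12866 kept genes gave the axes along which the cows differed most. The first component (PC1) held 38.1% of the variance and the second (PC2) 15.9%. In the study's own analysis, the first component correlated with RNA integrity, which its model then held as a confounder. RNA integrity is not in the labels, so its part in PC1 and in every result here that involves PC1 was not tested. In the main analysis, each member had its larger r with a different component. For CYP19A1 this order depended on the setting, with the components computed anew. Under the filter at 90% of cows, its r was 0.477 with PC1 and 0.474 with PC2. Without cows 20 and 24, its r was 0.468 with PC1 and 0.285 with PC2. In the other alternatives, apart from single cows left out, PC2 kept the larger r. The difference between the coefficients of CYP19A1 was not tested. FSHR rose along PC1 (r = 0.687, permutation p = 0.00029, adjusted p = 0.00116 over 4 relations, rho = 0.647), and cow 19, the lowest for FSHR, also lay lowest on PC1. Without cows 12 and 19, the farthest along PC1, r was 0.681. On PC2, FSHR showed no relation that could be detected, with r = 0.062 (adjusted permutation p = 0.780).

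CYP19A1 rose along PC2 (r = 0.532, permutation p = 0.00815, adjusted p = 0.0163, rho = 0.548). Cows 20 and 24, which lie lowest on PC2, were also the lowest for CYP19A1, and without this pair r was 0.285 (permutation p = 0.212). Cow 1, far out at the top of PC2, and cow 20 were the farthest along it, and without them r was 0.458 (adjusted permutation p = 0.0745). With PC1, r was 0.397 (adjusted permutation p = 0.0819), and rho was 0.440 (adjusted permutation p = 0.0497). The call on rho was lost with DESeq2 size factors (adjusted permutation p = 0.0642), with scaling to the total (0.0963), in the 21 cows with blastocysts (0.186) and without cows 12 and 19 (0.116). It was also lost without any 1 of cows 1, 10, 12, 13, 15, 17, 18, 21 and 22.

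Together both components accounted for 44.1% of the variance of CYP19A1 and for 47.6% of that of FSHR, close to the 42.2% of the median gene. For FSHR nearly all of it, 47.2%, came from PC1, and for CYP19A1 the larger share, 28.3%, came from PC2. The place of FSHR on PC1 depended on the scaling. With counts scaled to the library total, its r with PC1 was 0.383 (adjusted permutation p = 0.139).

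**Figure D3:**
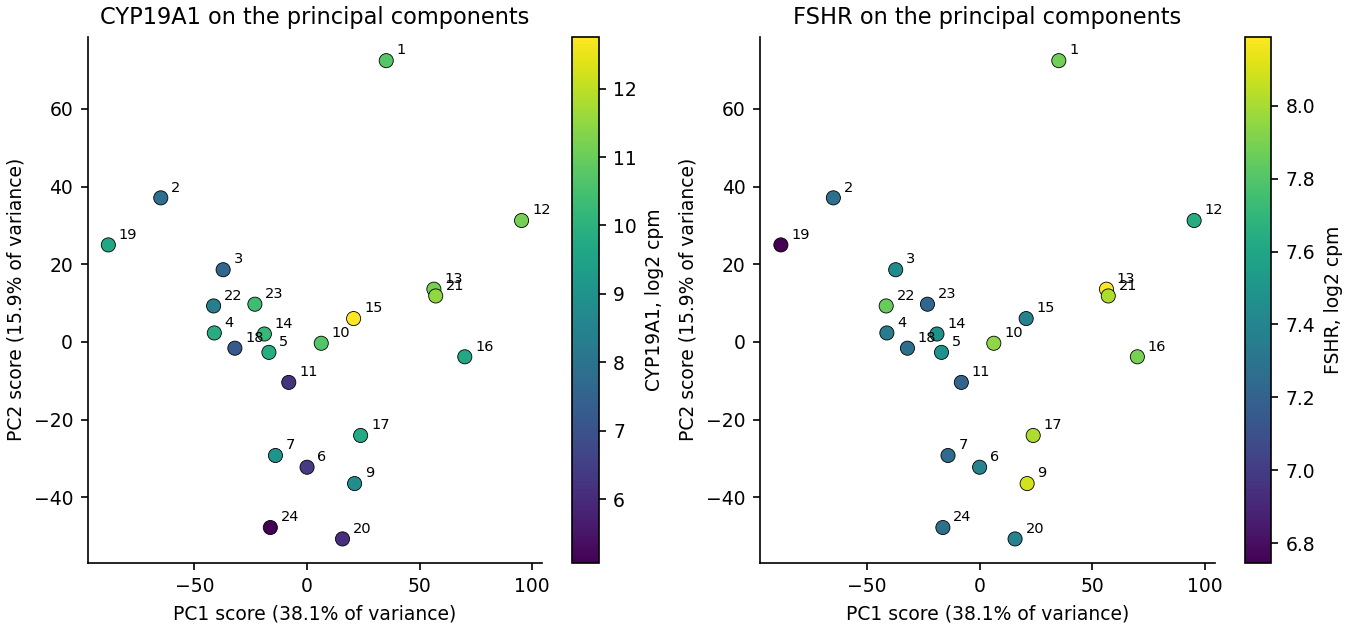
The 23 cows on PC1 and PC2 of the 12866 other genes, with cow numbers, coloured by the log2 cpm of CYP19A1 (left) and of FSHR (right) on separate colour scales. Light points of FSHR gather to the right on PC1, with cow 19 darkest at the far left, and the darkest points of CYP19A1, cows 24 and 20, lie at the bottom of PC2.

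Library composition moved with the members as well. CYP19A1 was lower where more genes had a count (r = -0.624, permutation p = 2e-05, adjusted p = 0.00016 over 8 relations, rho = -0.674). Without cows 20 and 24, which had the most genes with a count, r was -0.533 (permutation p = 0.0138). Its adjusted p was 0.0260 where each relation dropped its own 2 farthest cows, and 0.0553 where all 8 relations were computed without cows 20 and 24. For FSHR, r was -0.326 (adjusted permutation p = 0.196) and rho was -0.584 (adjusted permutation p = 0.0105), and without cows 20 and 24 r was -0.538 (permutation p = 0.0117, adjusted p = 0.0260). With all 8 relations computed anew without this pair, FSHR had r = -0.550 (adjusted permutation p = 0.0553).

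CYP19A1 was also lower where the 10 most abundant genes took a larger share of the counts, a share that lay between 20.9% in cow 19 and 42.4% in cow 20 (r = -0.545, permutation p = 0.00726, adjusted p = 0.0290). CYP19A1 itself was never among the 10 most abundant genes. FSHR gave r = -0.331 with that share (adjusted permutation p = 0.196). Without cows 19 and 22, the lowest in that share, r became -0.703 for CYP19A1 and -0.676 for FSHR (adjusted permutation p = 0.0032 and 0.00368). For the total count and the TMM factor, no relation with either gene passed the adjustment over all 23 cows. Without cows 19 and 22, however, the r of CYP19A1 with the TMM factor went from 0.268 to 0.509 (adjusted permutation p = 0.0260), and without cows 21 and 24 its r with the total count went from 0.355 to -0.055. The part of library composition in the levels of the members was not tested.

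The study asked whether transcript levels in these cells go with the outcome of IVP. It called genes for each of the 3 scores, neither member among them. Its scores were adjusted for the bull, and its model held age, sampling date and RNA integrity. It described both members as constant, on average, across its animals. It gave no values with this statement, and its normalization also covered gene length and GC content, so the folds given here are an unlike measure. Between the extreme cows, CYP19A1 spanned a 206-fold range here and FSHR a 2.72-fold range. Their quartiles differed 7.09-fold and 1.53-fold. With only the NTM class as covariate, neither gene was called for any of the 3 scores. In the regression on BL rate, CYP19A1 had a slope of -0.60 ± 0.321 (SE) on the log2 scale per 20 percentage points, with a 95% interval from -1.26 to 0.06 (edgeR quasi-likelihood p = 0.0743, adjusted p = 0.977). FSHR had a slope of -0.0072 ± 0.0835, with an interval from -0.18 to 0.17 (adjusted p = 0.9995). Over all 12868 genes 0 were called for BL rate (0% of those tested), by edgeR and by DESeq2. An unadjusted edgeR p under 0.05 was found for 380 genes, which is 2.95% of those tested.

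The kinetic score gave CYP19A1 a slope of -1.17 ± 0.582 per unit of score, with an interval from -2.37 to 0.03 (edgeR p = 0.0558, adjusted p = 0.969). FSHR had a slope of -0.11 ± 0.169 (edgeR adjusted p = 0.969). In this regression 0.00777% of the genes were called, which is 1 gene.

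Morphology came nearest for CYP19A1, with a slope of -0.74 ± 0.327 per unit of score and an interval from -1.42 to -0.07 (edgeR p = 0.0329, adjusted p = 0.431). FSHR had -0.14 ± 0.0892, with an interval from -0.32 to 0.05 (edgeR p = 0.135, adjusted p = 0.496). Again 0.00777% of the genes were called, and 1418 genes (11.0%) had an unadjusted p under 0.05. All 6 slopes were negative, and none passed the adjustment over all genes. That of FSHR on BL rate, -0.0072, was far smaller than its SE of 0.0835. The study reported positive correlations between all pairs of scores, so the signs are not independent of each other.

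Much of these slopes for CYP19A1 rested on cow 15. The 2 cows without blastocysts had 1651 cpm in cow 1 and 6922 cpm in cow 15, against a median of 814 cpm, and 235 and 167 cpm of FSHR. Without cow 15, the CYP19A1 slope was -0.22 on BL rate, -0.32 on kinetic and -0.39 on morphology. Without cow 1 it was -0.65, -1.39 and -0.84, steeper than over all cows for each score. Among the 21 cows with blastocysts the slopes were -0.13, 0.44 and -0.41, so that the slope on kinetic turned positive. In the same 21 cows the FSHR slope on morphology was steeper, at -0.32 (edgeR p = 0.0232, adjusted p = 0.450). With PC1 as covariate, FSHR had -0.022 on morphology (edgeR adjusted p = 0.999).

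No correlation with a score passed the adjustment, by r or by rho. For CYP19A1 and morphology, r was -0.442 (permutation p = 0.0334, adjusted p = 0.201 over 6 relations) and rho was -0.353. Without cows 1 and 15, r was -0.211 (permutation p = 0.358). FSHR and morphology gave r = -0.311 over 23 cows (adjusted permutation p = 0.298) and r = -0.424 without cows 1 and 15 (permutation p = 0.0548, adjusted p = 0.329). None of the other 4 relations had an absolute r above that of CYP19A1 with kinetic, -0.341 (adjusted permutation p = 0.298). By ranks this relation was weaker, with rho = -0.169 (adjusted permutation p = 0.613), and without cows 1 and 15 its r was 0.040.

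**Figure D4:**
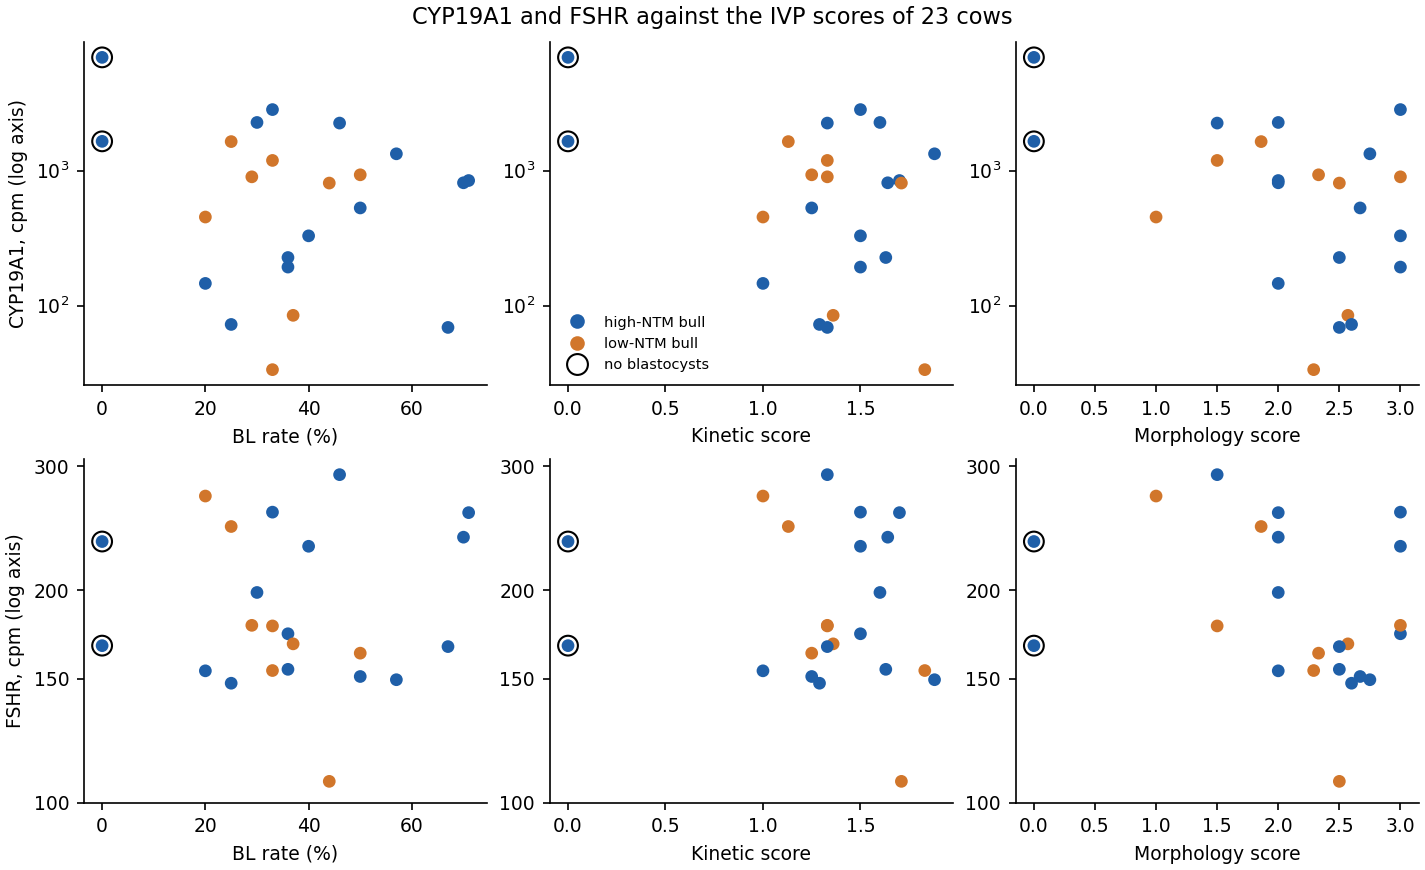
TMM-normalized cpm of CYP19A1 (top, log axis) and FSHR (bottom, log axis) against BL rate, kinetic score and morphology score in the 23 cows, coloured by NTM class, with rings around cows 1 and 15, which gave no blastocysts. Cow 15, at 6922 cpm, sits alone in the upper left corner of each CYP19A1 panel, and the remaining cows spread widely at every score.

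Between NTM classes, which refer to an insemination done after the cells had been taken, neither gene differed beyond the spread between cows. CYP19A1 ran from 68.9 to 6922 cpm in the high-NTM class, with a median of 814 cpm, and from 33.5 to 1644 cpm in the low-NTM class, with a median of 856 cpm. The means were 1367 ± 1785 cpm (SD, n = 15) and 757 ± 547 cpm (SD, n = 8), an order that the medians do not share. The fitted difference, low minus high, was -0.85 ± 0.754 on the log2 scale (edgeR adjusted p = 0.513, 95% interval from -2.41 to 0.70). FSHR had 198 ± 48.9 cpm (SD, n = 15) and 183 ± 52.4 cpm (SD, n = 8), a difference of -0.11 ± 0.160 (edgeR adjusted p = 0.707). With edgeR 0 genes were called (0% of those tested), although 2770 (21.5%) had an unadjusted p under 0.05, and DESeq2 called 84.

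All other genes were then set against each member in turn, with the member's log2 cpm scaled to an SD of 1. These slopes share libraries and scaling on both sides. Along CYP19A1, 11.1% of 12867 genes were called (1431 genes), of which 921 were higher (7.16%) and 510 lower (3.96%) where CYP19A1 was high. FSHR was not among them, with a slope of 0.16 ± 0.0729 per SD (edgeR p = 0.0399, adjusted p = 0.156). Cow 24 alone decided much of this count, since 660 genes were called without it, 802 without cow 20, 861 without cow 21 and 936 without cow 12. Without both cows 20 and 24 there were 607 genes, 546 higher and 61 lower, so that the lower direction shrank most.

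Along FSHR, 19.4% of the genes were called (2498 genes), of which 1117 were higher (8.68%) and 1381 lower (10.7%). CYP19A1 was not among them, with a slope of 0.37 ± 0.363 per SD (edgeR adjusted p = 0.488). With PC1 as covariate, 0 genes were called along FSHR and 1262 along CYP19A1. The CYP19A1 slope on FSHR was then -0.35 (edgeR adjusted p = 0.831). Leaving out cow 13 left 1052 genes along FSHR, and leaving out cow 19 left 1208.

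Slopes of called genes were mostly modest, with a median size of 0.302 per SD of CYP19A1 and 0.304 per SD of FSHR. Beyond a slope of 1 in size lay 36 genes along CYP19A1, 29 higher and 7 lower. Along FSHR there were 149 such genes, and all 149 were lower where FSHR was high.

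Closeness of pattern was measured as Pearson's r of log2 cpm over the 23 cows, as a description. By this measure 70 genes had an r over 0.8 with CYP19A1 and 0 had one under -0.8, while FSHR had 19 and 10. FSHR itself came 2116th in order of r with CYP19A1, with 16.4% of the genes above it, and CYP19A1 came 2476th for FSHR. Each member thus had many genes closer to it than the other member was.

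The gene closest to CYP19A1 was ENSBTAG00000000736, with r = 0.943. It had 50.3 cpm in cow 24, a median of 502 cpm and 2101 cpm in cow 15, and so was lowest and highest in the same cows as CYP19A1. Its r with FSHR was 0.305, below that of CYP19A1 itself. The gene with the lowest r was ENSBTAG00000014150 (r = -0.779), which ran from 27.8 cpm in cow 15 to 69.5 cpm in cow 20.

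For FSHR, the closest gene was ENSBTAG00000011743 (r = 0.897), with 227 to 665 cpm and its highest value in cow 13, as for FSHR. The lowest r was that of ENSBTAG00000000446 (r = -0.846), a sparse gene with 1.02 to 11.9 cpm. No symbols are given for these identifiers here.

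**Figure D5:**
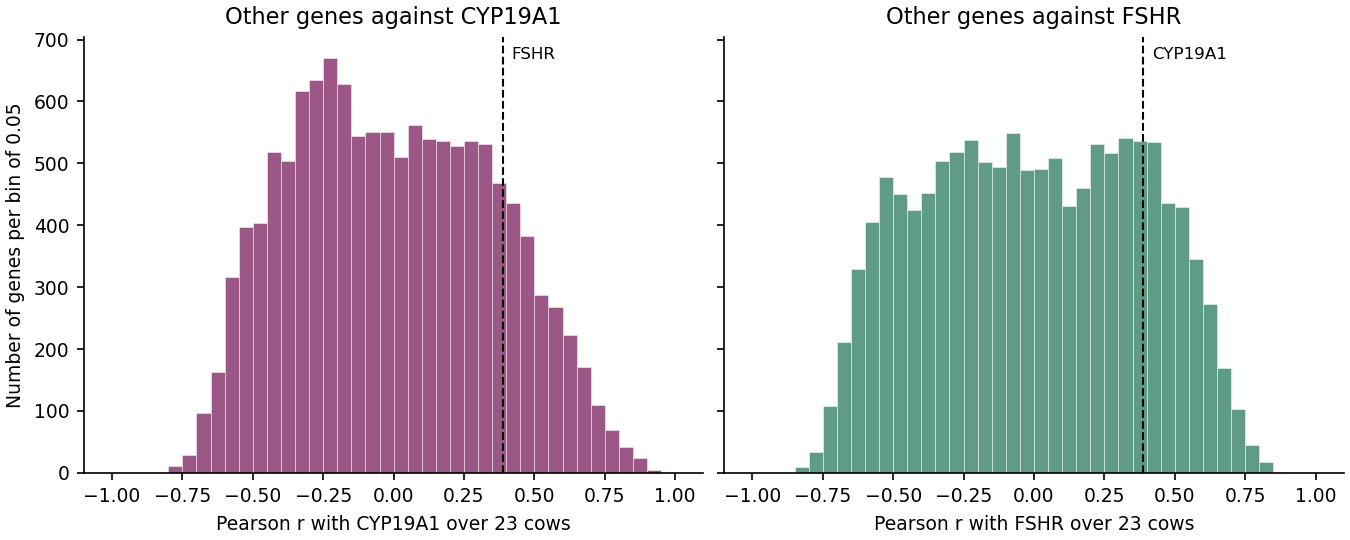
Numbers of genes per bin of 0.05 in Pearson's r of log2 cpm with CYP19A1 (left) and with FSHR (right), over 23 cows and 12867 other genes each. Dashed lines mark the other member at r = 0.389. In both panels the line lies on the right shoulder of the distribution, with 16.4% of the genes beyond FSHR on the left and 19.2% beyond CYP19A1 on the right.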

How the data were processed

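CYP19A1 and FSHR were taken from count files of the granulosa cells of 24 Holstein cows, 1 library per cow. The authors deposited raw counts, that is read pairs per Ensembl gene, after trimming the reads, alignment by STAR to the UMD3.1 assembly and counting them with HTSeq by strand. These values carry no normalization and no correction for gene length. The files do not pair identifiers with symbols, and the reference table used here matched 0 of them, so the identifiers ENSBTAG00000014890 and ENSBTAG00000032424 were taken as CYP19A1 and FSHR as given for this work, and 169 pathway and marker genes listed by symbol were not analysed here. Neither sequences nor coordinates were used here.

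Cow 8, which the study left out, entered only alternatives. Genes with at least 1 cpm (counts scaled to a common library size) in at least 10% of the remaining 23 cows were kept. Counts were scaled with edgeR's TMM factors (edgeR 4.0.16, R 4.3.3), and log2 cpm used a prior count of 2. Slopes on the scores (adjusted for the bull's NTM class), on that class and on each member were fitted over all kept genes with edgeR's quasi-likelihood test, and called at a Benjamini-Hochberg FDR under 0.05. Age, sampling date and RNA integrity, which the study's expression model held, and the individual bull, for which the study adjusted the scores beforehand, were not in the labels. Principal components were computed without both members. Correlations over cows used two-sided permutation tests of 100000 resamples (scipy 1.17.1), adjusted by Benjamini-Hochberg within each family, and were computed again after dropping the 2 cows with the most extreme values of the x measure.

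Besides both members, the genes to be named were the 5 with the highest and the 3 with the lowest Pearson r with each member, of which the first on each side are printed. The members, lists and tests were chosen with earlier results of these data known. Alternatives used DESeq2 1.42.0 and limma 3.58.1 among others. The fits and correlations were first tested on simulated data. No pair of the 276 library pairs held identical counts.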

Additional observations from a re-analysis of the deposited data

Results flagged for a closer look

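Cow 8, a low-NTM cow that entered none of the comparisons above, had both genes far above the limit that 3 counts set in its library (0.167 cpm), which is why it is given here. Scaled together with the other cows, it had 84.4 cpm of CYP19A1, on 1575 read pairs of a total of 17917470, and only 3 of the other 23 cows were lower. Its FSHR was 116 cpm, on 2169 read pairs, and only 1 of the other 23 cows was lower. The study left this cow out because few of its reads mapped uniquely and it was an outlier in clustering and principal components. The part of library quality in its low values was not tested. In the low-NTM class of 8 cows, no cow stood apart from its nearest neighbour by more than Dixon's critical value for either gene. The widest gap, 0.388 of the range against a critical value of 0.526, was that of cow 19 for FSHR.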

How the results depend on the processing

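Counting error was small against the spread between cows, and the number of cows limits the tests. Each cow has 1 library, so differences between libraries cannot be told apart from differences between cows. No paired analysis was possible because no cow has a second library and the labels carry no shared replicate numbers. Over 320 alternative fits of the 10 slopes of CYP19A1 and FSHR, 0 passed an FDR of 0.05 (smallest adjusted p = 0.0656, by edgeR without a filter) and 307 kept their direction. Most of these fits left out a single cow and shared all other cows with the main fit. Causes of the changes below were not tested, beyond the fewer cows or genes that an alternative holds. Leaving out cows 15 and 24 throughout, and cows 20 and 24 in both regressions on the members, was chosen after seeing the data.

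Among slopes, FSHR on BL rate turned to 0.0040 without the covariate and to 0.0028 with PC1 as covariate, CYP19A1 on kinetic turned to 0.44 in the 21 cows with blastocysts, and CYP19A1 on FSHR turned to -0.35 with PC1 and to -0.17 with both components as covariates. With single cows dropped, FSHR on BL rate ran from -0.061 to 0.029.

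Genes called for kinetic were 186 without a filter, when 22830 genes were kept in place of 12868. They were 3 by DESeq2, 7 with PC1 as covariate and 0 for the 21 cows or the ranks. For morphology they were 73 by DESeq2 and 0 by limma voom, for the 21 cows or for the ranks. The NTM class gave 84 genes by DESeq2 and 2 with cow 8. In the runs with 1 cow fewer, the counts ran from 0 to 1 for BL rate, 0 to 3 for kinetic, 0 to 6 for morphology and 0 to 27 for the NTM class.

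Along CYP19A1, the called genes were 6384 without a filter (1514 higher, 4870 lower), when 22830 genes were kept. They were 486 with both components as covariates (329 and 157), 607 without cows 20 and 24 (546 and 61) and 511 without cows 15 and 24 (381 and 130). Those lower were 897 with cow 8 and 849 by DESeq2. Over the 23 runs with a cow left out, there were 660 to 1898 (505 to 1148 higher, 155 to 750 lower). Along FSHR, there were 1098 with the filter at 90% of cows (484 higher, 614 lower), which kept 10891 genes. With PC1 or both components as covariates there were 0 (0 and 0). Those lower were 2440 without a filter. When single cows were dropped, there were 1052 to 3367 (426 to 1542 higher, 600 to 1825 lower).

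The correlation of CYP19A1 with FSHR passed 0.05 by r with scaling to the total (0.520), with cow 8 (0.425) and in the 21 cows (0.447). Its rho was 0.417 without cows 20 and 24 and 0.0553 after PC1 was removed. With single cows dropped, r ran from 0.325 to 0.480 and rho from 0.382 to 0.537.

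With the scores, CYP19A1 in the 21 cows gave r = 0.104 and rho = 0.058 for BL rate and r = 0.040 and rho = 0.043 for kinetic, for which rho was 0.065 without cows 15 and 24. For FSHR and BL rate, r was 0.00024 with scaling to the total, 0.036 with cow 8 (rho = 0.0017), 0.046 in the 21 cows and 0.023 without cows 20 and 24. In the runs with 1 cow fewer, r ran from -0.140 to 0.085 and rho from -0.170 to 0.0079.

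The components were computed anew in each alternative of this paragraph. With PC1, r was 0.477 for CYP19A1 under the filter at 90% of cows and 0.383 for FSHR with scaling to the total. Over the 23 runs with a cow left out, CYP19A1 ran from 0.283 to 0.519. With PC2, CYP19A1 had r = 0.285 without cows 20 and 24 and 0.483 without cows 15 and 24, and 0.411 to 0.648 without each cow in turn. FSHR and PC2 gave r = -0.058 and rho = -0.065 without cows 20 and 24, r = -0.168 and rho = -0.095 under the filter at 90% of cows and r = -0.010 without cows 15 and 24. When single cows were dropped, r ran from -0.055 to 0.243 and rho from -0.072 to 0.248.

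With the number of genes with a count, CYP19A1 had r = -0.533 without cows 20 and 24 (adjusted permutation p = 0.0553). With the share of the 10 most abundant genes, it had r = -0.494 with cow 8, -0.437 without cows 20 and 24, -0.533 without cows 15 and 24 and -0.640 to -0.472 without each cow in turn. FSHR and that share gave r = -0.672 with scaling to the total and -0.666 to -0.232 without each cow in turn. FSHR and total count gave rho = -0.013 with DESeq2 size factors, -0.0040 with scaling to the total, -0.027 without cows 20 and 24, -0.104 without cows 15 and 24 and -0.103 to 0.106 without each cow in turn. FSHR and the scaling factor gave rho = -0.080 with cow 8, -0.060 without cows 20 and 24 and -0.040 without cows 15 and 24. With single cows dropped, r ran from -0.284 to 0.285 and rho from -0.095 to 0.276. A change of scaling or filter cannot test the mean log2 cpm, because the scaling factors average out over the cows and leave it nearly fixed. With cow 8 added, the mean went from 9.12 to 9.01 for CYP19A1 and from 7.55 to 7.52 for FSHR, shifts smaller than the SD of each gene. The mean was not computed with cows left out.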
